A study of Mus musculus with 38 samples.

Results

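The genes described are the DNA repair gene families represented on a spotted mouse array. They were chosen by the start of the gene symbol: Rad followed by a digit, Xrcc, Ercc, Fanc, Brca, Msh, Mlh, Parp, Lig, Pole, Pold, Polb, Mgmt, Ogg1, Apex, Rpa, Smc and Rfc. The rule matched 67 genes with 1 single-gene probe each, and 40 of them were measured in 3 or more mice of every group, out of 5925 genes on the array that met this condition. The other 27 were not tested. A symbol does not prove a role: Ercc6l, Ercc6l2, Poldip2, Smco2 and Smcp were kept apart as genes with another role or none assigned, and Fancd2os, which stands next to a Fanconi gene and is not one, was counted with the Fanconi group only because of its name.

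The study followed the spleen of DBA/2 mice after cyclophosphamide. Splenocytes came from 5 untreated mice, 4 mice at day 1, 5 mice at day 2 and 5 mice at day 5, and the treated mice had been given 83 mg/kg of the drug intraperitoneally. Spleen RNA was labelled with Cy5 and hybridised, on 2 technical arrays a mouse, against 1 Cy3 reference, described as pooled marrow cells of untreated DBA/2 mice although its treatment entry names the drug. Each value is thus a log2 ratio of spleen over that pool, and the difference between groups does not depend on the pool as long as 1 pool served all arrays.

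Cyclophosphamide is a prodrug that the liver turns into an alkylating mustard, which attaches to guanine and can tie the strands of DNA together. Such crosslinks are opened by the Fanconi anaemia proteins and nucleotide excision enzymes and are mended by homologous recombination, while smaller alkyl lesions go to base excision repair or direct reversal. Many repair proteins, among them replication protein A, the clamp loader and DNA ligase I, also work at every replication fork, so their RNA is known to be more abundant in cells that copy their DNA.

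Probes with a value numbered 5829 to 10407 per array out of 13443, and the 2 arrays of a mouse correlated at 0.581 to 0.962, with 3 mice below 0.7 (untreated mice 2 and 4 and day 5 mouse 5). Depth has no meaning for arrays, and their number limits the precision. In untreated mice the median ratio of B cell markers was 0.39 on the log2 scale and above 0 in 5 of 5 mice, that of T cell markers was 0.16 and above 0 in 4 of 5 mice, and that of early granule and neutrophil markers was -1.78 and below 0 in 5 of 5 mice. The repair genes stood near the pool, with a median log2 ratio of -0.03 ± 0.07 (SD over 5 mice).

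The genes that fell at day 2 and had a RefSeq promoter window were ordered by their p at day 2 against untreated. The promoters of the 4 with the smallest p, genes of recombination, single-strand binding or clamp loading, are shown first. Each is the 250 bases before the RefSeq start, 5′ to 3′ on the gene's strand, build GRCm38.p6, with capitals marking matches on either strand to CCAAT (NF-Y-type), GGGCGG (SP1-type), TTTGAA (CHR-type), TTCGCGC or TTGGCGC (both E2F-type).
Brca1 (chr11:101551956-101552205, minus strand): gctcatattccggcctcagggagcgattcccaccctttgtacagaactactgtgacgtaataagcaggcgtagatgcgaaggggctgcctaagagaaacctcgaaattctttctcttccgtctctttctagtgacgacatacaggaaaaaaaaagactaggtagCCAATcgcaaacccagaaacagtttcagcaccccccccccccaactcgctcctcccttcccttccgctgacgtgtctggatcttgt
Rpa3 (chr6:8259142-8259391, minus strand): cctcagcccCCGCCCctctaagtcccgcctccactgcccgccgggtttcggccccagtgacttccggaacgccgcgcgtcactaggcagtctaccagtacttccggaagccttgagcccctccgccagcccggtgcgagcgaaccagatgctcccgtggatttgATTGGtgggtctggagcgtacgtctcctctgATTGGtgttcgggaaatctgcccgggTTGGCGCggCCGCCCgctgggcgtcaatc
Rfc4 (chr16:23127731-23127980, minus strand): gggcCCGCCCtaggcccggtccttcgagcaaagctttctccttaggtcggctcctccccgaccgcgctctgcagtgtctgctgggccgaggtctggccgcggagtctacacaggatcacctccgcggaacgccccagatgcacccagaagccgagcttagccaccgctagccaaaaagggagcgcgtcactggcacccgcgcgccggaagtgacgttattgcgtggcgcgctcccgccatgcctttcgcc
Rpa1 (chr11:75348384-75348633, minus strand): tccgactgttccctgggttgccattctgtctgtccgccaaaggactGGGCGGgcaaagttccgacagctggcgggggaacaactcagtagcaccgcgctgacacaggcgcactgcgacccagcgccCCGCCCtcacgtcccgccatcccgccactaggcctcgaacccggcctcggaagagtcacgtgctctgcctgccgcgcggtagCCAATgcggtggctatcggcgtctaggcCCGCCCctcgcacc

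RefSeq windows of 250 bases before to 50 after the start were matched for 34 of the 40 genes, 5 of them among the genes that fell at day 2. Smc4 and Ercc6l had no window. Lig1 had 3 windows, Pole4 and Rad1 had 2 and the other repair genes 1, while all 27025 genes had 32851. A gene with more windows offers more sequence for a match. TTGGCGC was found for 3 of the 5 genes that fell (Brca1, where it lies after the start, Rpa3 and Lig1), for 2 of the other 29 repair genes and for 2.85% of the 27025 genes with a window. TTCGCGC was found for Lig1 alone among the 5, for 1 of the other 29 and for 1.81% of all genes. CCAAT was found for 3 of the 5 (Brca1, Rpa1 and Rpa3), 11 of the other 29 and 41.1% of all, and GGGCGG for 4 of the 5 (Lig1, Rfc4, Rpa1 and Rpa3), 14 of the other 29 and 38.2% of all. TTTGAA was found for 0 of the 5, 3 of the other 29 and 20.2% of all. These matches describe letters in a window and show no binding.

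Against untreated spleen, 7 of the 40 repair genes fell at day 2 and none rose. Brca1, Rpa1, Rpa3, Rfc4, Lig1, Smc4 and Ercc6l were lower by 0.46 to 1.16 on the log2 scale. In limma with all 4 groups in 1 fit and p-values adjusted over 8319 probes, 17.5% of the repair genes passed an adjusted p of 0.05, beside 8.31% of all probes. For falls alone the background was 5% of all probes, and for rises, with 0 repair genes, it was 3.31%. Without the genes of another or no assigned role and Fancd2os, 6 of 34 fell and none rose. The count over all 40 depended on how the arrays were scaled. After median centring the same 7 passed, with 5.07% of all probes falling. After quantile normalization 2 repair genes passed, with 2.76% of all probes falling. After bringing all arrays to 1 spread 1 passed, with 3.03% of all probes falling. The last 2 scalings, called both scalings below, thus passed 5% and 2.5% of the repair genes. Brca1 passed in both.

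**Figure D1:**
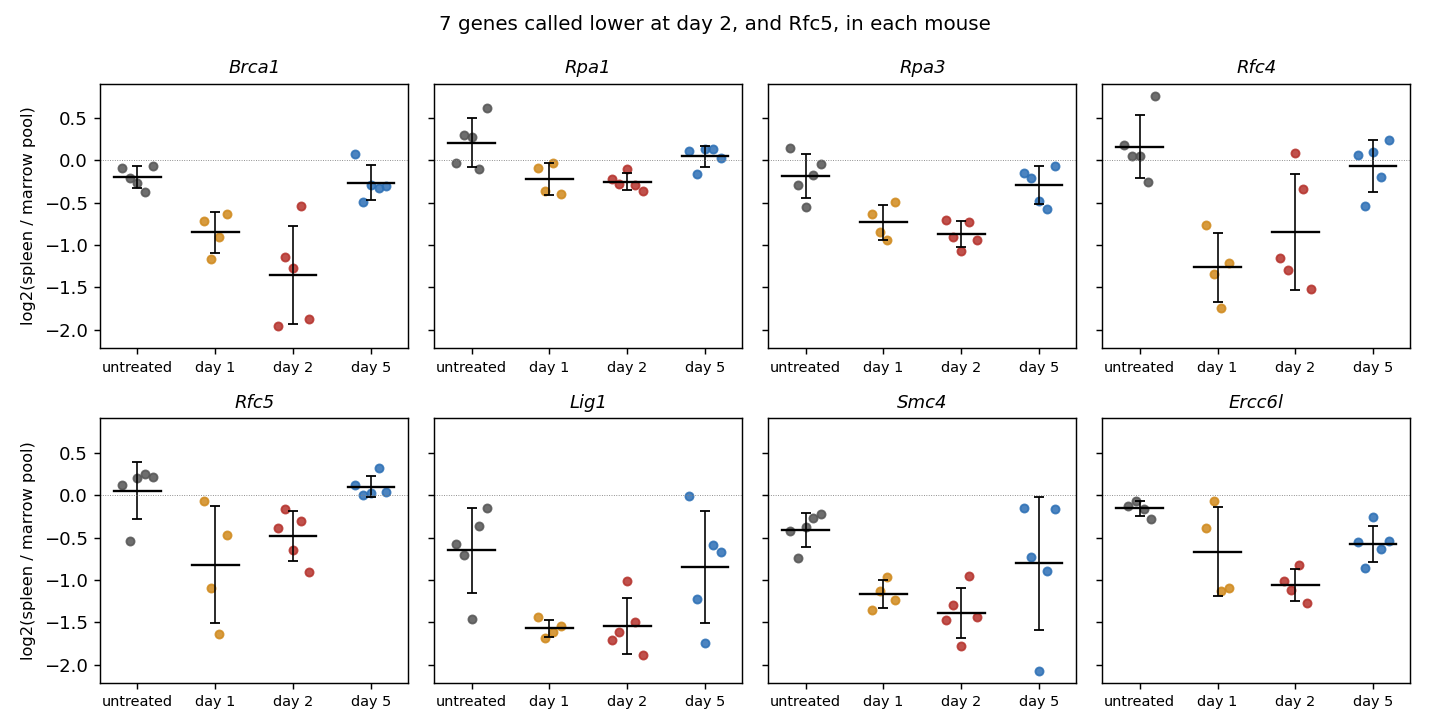
Log2 ratio of spleen over the marrow pool (vertical axis) for each mouse in the 4 groups (horizontal axis); each point is 1 mouse, the bar is the group mean and the error bar 1 SD. All 7 genes that passed at day 2 and Rfc5, which did not pass, have lower means at days 1 and 2 than in untreated spleen, and for Brca1, Rpa3, Smc4 and Ercc6l no day 2 mouse overlaps an untreated mouse.

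Among the genes of homologous recombination, Brca1 fell. Its protein guides broken ends into recombination and protects stalled forks. The gene lies at chr11:101488761-101551955 in GRCm38.p6. Its log2 ratios were -0.08, -0.20, -0.26, -0.38 and -0.07 in the untreated mice and -0.71, -1.16, -0.90 and -0.63 at day 1. They were -1.95, -1.14, -1.27, -0.54 and -1.87 at day 2 and 0.07, -0.49, -0.29, -0.32 and -0.30 at day 5. All mice of days 1 and 2 were below all untreated mice, and the day 5 mice overlapped the untreated range. The 2 arrays of day 2 mouse 3 gave -0.68 and -1.87. The difference from untreated was -1.16 ± 0.20 (SE) at day 2, a 2.23-fold lower ratio (limma, adjusted p = 0.000862), and the call held in each of the alternatives to the fit, where the adjusted p reached 0.019 at most. At day 1 it was -0.65 ± 0.22 and did not pass (adjusted p = 0.128).

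The other 3 measured genes that were grouped under recombination did not pass in any comparison. Rad50, part of the MRN complex that holds broken ends, differed at day 2 by -0.16 ± 0.15, and Rad52, a recombination mediator, by 0.07 ± 0.15. Rad54l2, a remodelling ATPase related to Rad54, differed by 0.03 ± 0.12. Brca2, which acts in recombination, was not tested, since it had values in 3, 3, 2 and 4 mice of the untreated, day 1, day 2 and day 5 groups.

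Replication protein A coats single-stranded DNA at forks and at resected breaks, and 2 of its 3 measured subunits fell at day 2. The small subunit gene Rpa3 (chr6:8255936-8259141) had log2 ratios of 0.14, -0.29, -0.55, -0.17 and -0.04 in untreated mice and -0.63, -0.85, -0.94 and -0.48 at day 1. The values were -0.71, -0.90, -1.07, -0.72 and -0.94 at day 2 and -0.15, -0.20, -0.48, -0.57 and -0.06 at day 5. Day 2 was below every untreated mouse and every day 5 mouse, whereas day 1 overlapped the lowest untreated mouse. The day 2 difference was -0.69 ± 0.14 (adjusted p = 0.00403), with a technical SD of only 0.0669 between the arrays of a mouse. Under quantile normalization it was -0.53 and missed the threshold (adjusted p = 0.054), as it did with 1 spread for all arrays (-0.58, adjusted p = 0.053).

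The large subunit gene Rpa1 (chr11:75300259-75348454) changed less. It had -0.03, 0.30, 0.28, -0.10 and 0.62 in untreated mice, -0.08, -0.36, -0.03 and -0.39 at day 1, -0.21, -0.28, -0.10, -0.29 and -0.36 at day 2 and 0.11, -0.16, 0.14, 0.13 and 0.03 at day 5. The highest day 2 mouse lay at the level of the lowest untreated mouse. The day 2 difference of -0.46 ± 0.13 passed (adjusted p = 0.0357), and it missed in 11 alternatives, among them both of those scalings (adjusted p = 0.0552 and 0.0557), the first technical arrays alone (0.104) and the fit without untreated mouse 5 (0.0962). Rpa2, the middle subunit, differed by -0.17 ± 0.34 and was measured in as few as 3 mice a group.

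The clamp loader, replication factor C, places the sliding clamp PCNA on DNA, and 1 of its 3 measured subunits fell. Rfc4 (chr16:23113948-23127730) was the one repair gene that passed at day 1. Its log2 ratios were 0.19, 0.05, 0.05, -0.25 and 0.77 in untreated mice and -0.76, -1.34, -1.75 and -1.21 at day 1. They were -1.16, -1.29, 0.09, -0.34 and -1.52 at day 2 and 0.07, -0.54, 0.10, -0.19 and 0.24 at day 5. Every day 1 mouse was below every untreated one, while day 2 mouse 3 lay within the untreated range and day 2 mouse 4 just below it.

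The Rfc4 difference from untreated was -1.43 ± 0.28 at day 1 (adjusted p = 0.00769) and -1.005 ± 0.27 at day 2 (adjusted p = 0.0226). The arrays of 1 mouse disagreed strongly: day 1 mouse 3 gave 0.26 on one array and -3.76 on the other, a gap of 4.02, and the technical SD of Rfc4 was 0.736, the highest among the repair genes. With the first technical arrays alone the day 1 difference was -0.87 and did not pass (adjusted p = 0.18), nor did it pass with the mouse as a random effect (adjusted p = 0.104). Without day 1 mouse 3 it passed (adjusted p = 0.0352). The day 2 call was lost in 8 alternatives, among them the second technical arrays alone (adjusted p = 0.218) and the fits without untreated mouse 5 (0.0611) and without day 2 mice 1, 2 or 5 (0.0533, 0.062 and 0.0736).

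Rfc5, another clamp loader subunit, missed the threshold at day 1. Its log2 ratios were 0.12, -0.54, 0.21, 0.25 and 0.22 in untreated mice and -0.07, -1.10, -1.64 and -0.47 at day 1, and the groups overlapped through untreated mouse 2. The 2 arrays of that mouse gave 0.68 and -1.76, and those of day 1 mouse 3, the lowest mouse, gave -0.78 and -2.50. The day 1 difference was -0.87 ± 0.24 (adjusted p = 0.0621). It passed in 6 alternatives, among them without untreated mouse 2 (-1.02, adjusted p = 0.025) and after quantile normalization (-0.97, adjusted p = 0.019). Without day 1 mouse 3 it was -0.599 and did not pass. Rfc2 differed by 0.16 ± 0.16 at day 1 and -0.12 ± 0.15 at day 2. Neither measured polymerase accessory subunit passed: Pole4 differed by 0.25 ± 0.23 and Pold4 by -0.02 ± 0.16 at day 2.

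**Figure D2:**
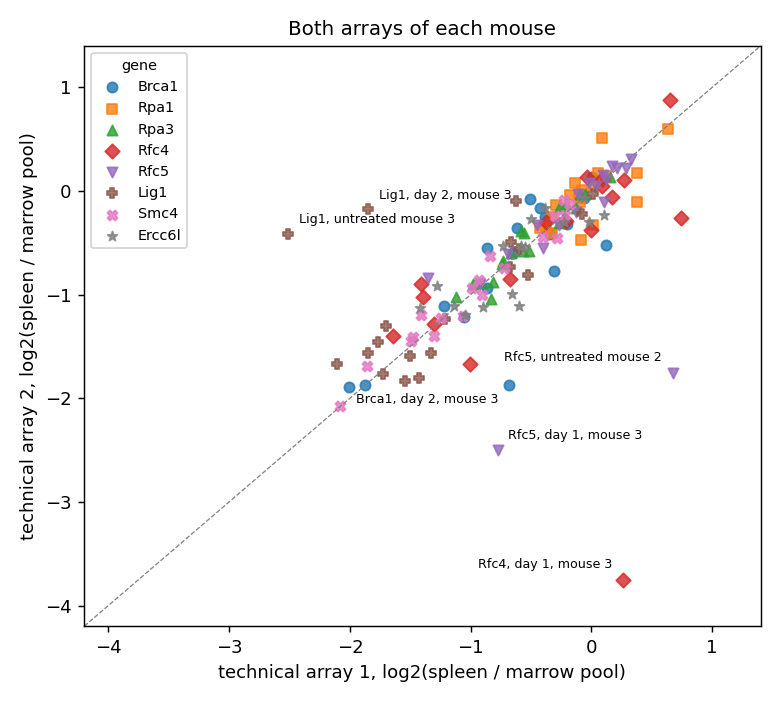
Log2 ratio of the first technical array (horizontal axis) against the second (vertical axis) of each mouse for the 7 genes that fell and Rfc5; each point is 1 gene in 1 mouse with both values, and the dashed line marks equal values. Most points lie near the line, and Rfc4 in day 1 mouse 3 stands 4.02 away from equality.

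Base excision and single-strand break repair held 6 measured genes, of which Lig1 fell. DNA ligase I, its product, joins Okazaki fragments and seals long repair patches. Lig1 (chr7:13277175-13311426) had -0.58, -0.70, -1.47, -0.36 and -0.15 in untreated mice, -1.44, -1.69, -1.62 and -1.55 at day 1, -1.71, -1.61, -1.01, -1.50 and -1.89 at day 2 and -0.01, -1.22, -1.75, -0.58 and -0.67 at day 5. Untreated mouse 3 lay within the treated range, and its 2 arrays gave -2.51 and -0.42. Those of day 2 mouse 3 gave -1.85 and -0.18. The day 2 difference was -0.89 ± 0.26 (adjusted p = 0.0399) and the day 1 difference -0.92 ± 0.28 (adjusted p = 0.092). The day 2 call was the least stable of the 7, since it was lost in 14 alternatives. Among them were either technical array alone (adjusted p = 0.0929 and 0.0797), both scalings (0.322 and 0.378) and leaving out untreated mouse 1, 2, 4 or 5 (0.0811, 0.0623, 0.0983 and 0.0989) or day 2 mouse 1, 2, 4 or 5 (0.0761, 0.0759, 0.0605 and 0.101).

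The other 5 did not pass in any comparison. Parp1, the main sensor of strand breaks, differed by 0.11 ± 0.24 at day 1 and 0.16 ± 0.26 at day 2, and Parp2, its relative, by -0.06 ± 0.19 and -0.08 ± 0.18. Lig3, the ligase that works with Xrcc1, differed at day 2 by 0.16 ± 0.19 and Apex1, the abasic site nuclease, by -0.19 ± 0.19. Parp3, a break-responsive polymerase of ADP-ribose, had 0.60, 0.94, 0.45, 0.42 and 0.65 in untreated mice, 1.02, 0.97, 1.11 and 0.93 at day 1 and 1.09, 1.01, 0.13 and 1.15 in the 4 day 2 mice with a value. Its day 1 difference of 0.39 ± 0.18 did not pass (adjusted p = 0.327). The day 2 difference of 0.23 ± 0.18 did not pass either (adjusted p = 0.486). Without day 2 mouse 4 the day 2 difference was 0.47 ± 0.14 and passed (adjusted p = 0.0408).

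Of the SMC proteins, ring-shaped ATPases that hold or compact chromosomes, 1 of 3 fell. Smc4 (chr3:69004738-69034623) encodes a core subunit of condensin, which compacts chromosomes for mitosis. It had -0.42, -0.74, -0.37, -0.27 and -0.23 in untreated mice, -1.35, -1.13, -0.96 and -1.24 at day 1, -1.47, -1.30, -1.78, -0.96 and -1.44 at day 2 and -0.15, -0.73, -2.07, -0.89 and -0.16 at day 5. Days 1 and 2 lay below every untreated mouse, and day 5 mouse 3 was the lowest of all. The difference was -0.98 ± 0.26 at day 2 (adjusted p = 0.0206) and -0.76 ± 0.27 at day 1 (adjusted p = 0.169). The day 2 call was lost after quantile normalization (-0.66, adjusted p = 0.227), with 1 spread for all arrays (-0.76, adjusted p = 0.173) and without day 2 mouse 3 (-0.89, adjusted p = 0.0567). The cohesin gene Smc1a differed by -0.37 ± 0.21 and Smc6, of the complex that resolves joined DNA, by -0.06 ± 0.12.

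Ercc6l (chrX:102142820-102157091) shares its name with excision repair genes, but its product is a DNA translocase of anaphase bridges in mitosis. It had -0.12, -0.06, -0.16 and -0.28 in untreated mice 1 to 4, -0.39, -0.06, -1.13 and -1.09 at day 1, -1.01, -1.12, -0.83 and -1.28 in day 2 mice 1, 2, 4 and 5 and -0.56, -0.86, -0.26, -0.63 and -0.55 at day 5. No day 2 mouse overlapped the untreated mice. The day 2 difference was -0.90 ± 0.20 (adjusted p = 0.00814), and it missed after quantile normalization (adjusted p = 0.0829), with 1 spread for all arrays (0.0663) and without the 3 mice of low technical correlation (0.0639).

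None of the 4 genes grouped as Fanconi and the 3 nucleotide excision genes that the symbol rule matched and that were tested passed in any of the 5 comparisons. Of the Fanconi group, Fancc and Fancg, of the core complex, differed at day 2 by -0.03 ± 0.16 and 0.01 ± 0.13, and Fancl, its ubiquitin ligase subunit, by -0.21 ± 0.14. Fancd2os differed by 0.02 ± 0.18. Of nucleotide excision repair, the helicase gene Ercc2 differed by -0.25 ± 0.24, the nuclease gene Ercc5 by 0.10 ± 0.22 and the transcription-coupled factor Ercc8 by 0.14 ± 0.17. At day 2 the 95% intervals of all 7 lay within a 2-fold change in either direction, as did those of 86.97% of all probes.

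End joining was represented by Xrcc5, the Ku80 gene that binds broken ends. It had 0.23, 0.34, 0.14, 0.86 and -0.02 in untreated mice and -0.25, -0.16 and -0.22 in the 3 day 1 mice with a value, all below the untreated mice. The day 1 difference was -0.52 ± 0.23 and did not pass (adjusted p = 0.328). Of the mismatch repair genes, Msh6, which recognises mispairs, differed at day 2 by -0.26 ± 0.14. The other, Msh4, is known as a meiotic member of the family and differed by -0.42 ± 0.19 at day 1, with the groups apart, and by 0.14 ± 0.19 at day 2.

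The 3 measured damage checkpoint genes had mean differences from untreated above 0 at days 1, 2 and 5, and none passed. Of all 8319 probes, 4521, 4232 and 4394 had a difference above 0 at these days. The same untreated mice enter all 3 comparisons, so the days are not independent. Rad9a and Rad1 encode parts of the clamp that is loaded at damaged DNA and Rad17 its loader. Rad9a had -0.38, -0.49, -0.47, -0.77 and -0.38 in untreated mice, 0.08, 0.09, -0.20 and -0.19 at day 1, -0.41, -0.19, -0.51, -0.29 and -0.40 at day 2 and -0.32, -0.52, -0.61, -0.45 and -0.10 at day 5. Each day 1 mouse was above each untreated mouse, the only such case among the 40 genes, beside 4.24% of all probes. The difference of 0.44 ± 0.13 did not pass (adjusted p = 0.0792), and it passed over the probes measured in every mouse (adjusted p = 0.0489). Rad17 differed by 0.27 ± 0.15 and Rad1 by 0.33 ± 0.24 at day 1.

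Among the rest, Parp16 differed at day 2 by -0.21 ± 0.13, Ercc6l2 by -0.02 ± 0.13 and Poldip2 by -0.18 ± 0.21. Smco2 differed by 0.33 ± 0.20. Smcp, known from sperm mitochondria, differed most at day 5, by -0.58 ± 0.16, without passing (adjusted p = 0.612), and its day 5 mice lay below its 3 untreated mice, as they did for 0.914% of all probes.

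**Figure D3:**
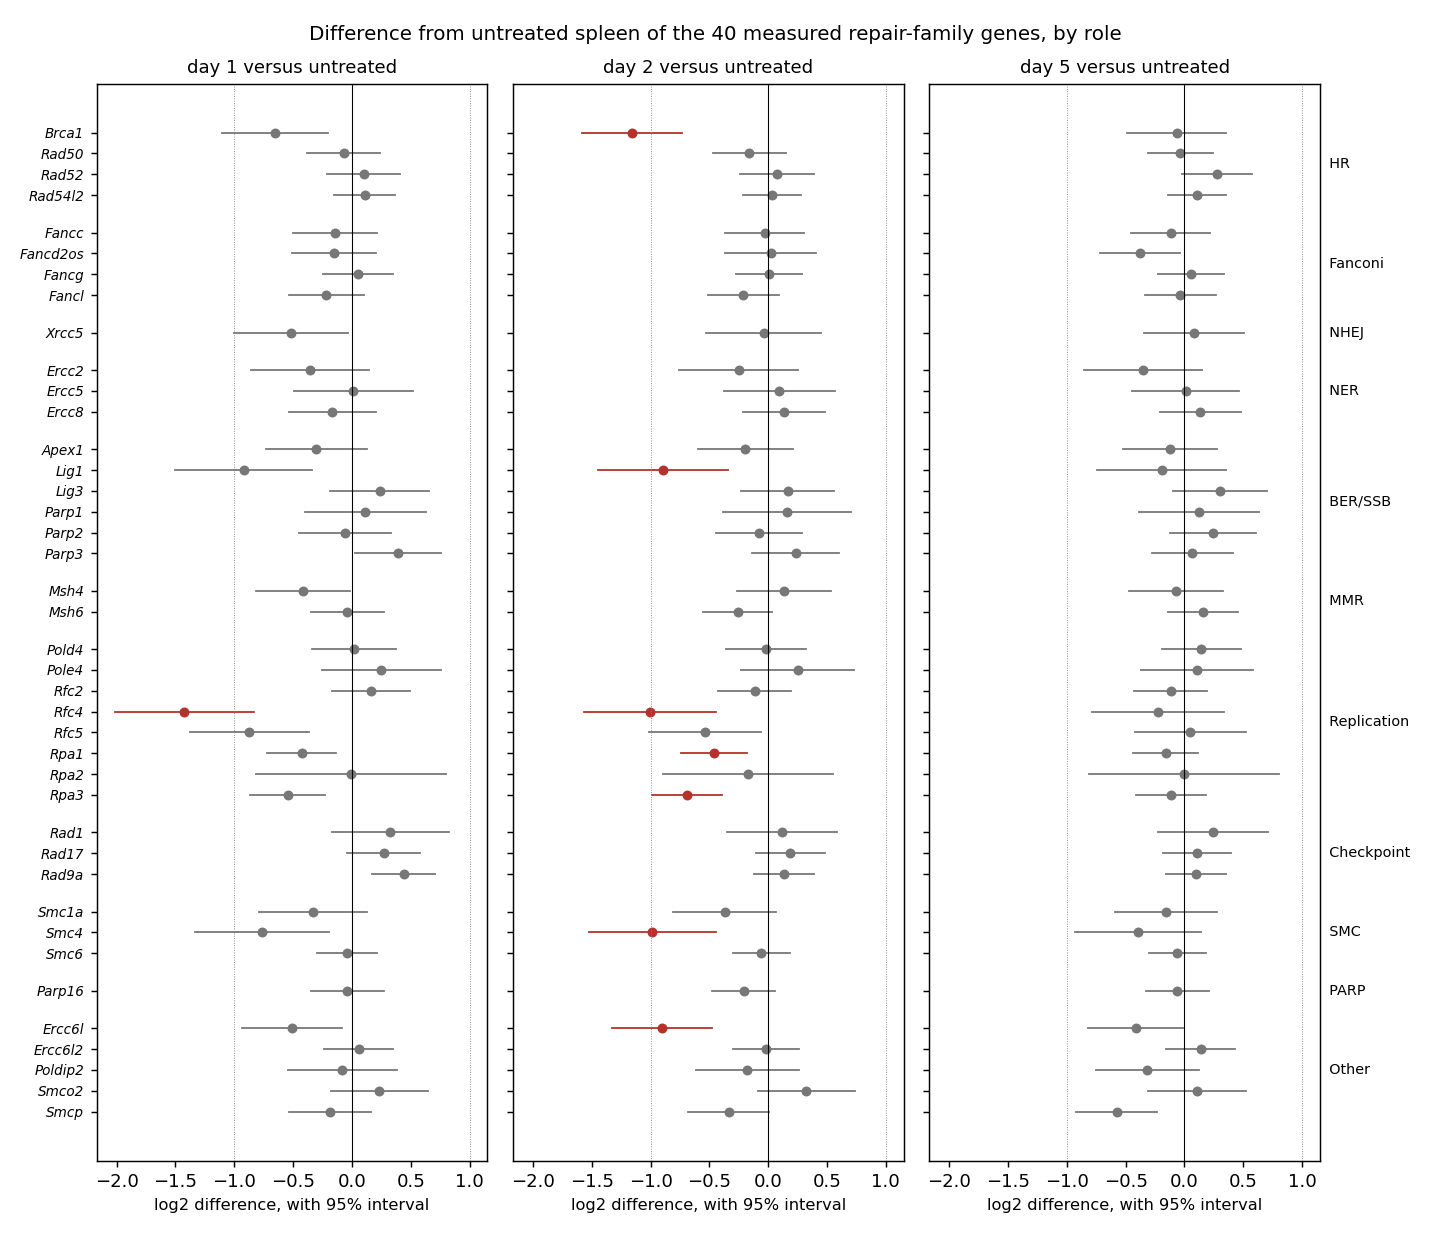
Difference from untreated spleen on the log2 scale (horizontal axis) of each of the 40 repair genes (vertical axis, grouped by role) at days 1, 2 and 5; points are limma estimates, lines 95% intervals, red marks adjusted p below 0.05, and dotted lines a 2-fold change. Red points are 1 at day 1, 7 at day 2 and 0 at day 5, all to the left of 0.

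At day 1, 1 of the 40 genes fell and none rose, 2.5% beside 2.33% of all probes in either direction and 1.39% for falls. Leaving out day 1 mouse 2 brought that background to 1.19% (0.697% for falls), and leaving out day 1 mouse 4 brought it to 1.31% (0.853% for falls). Rfc4 passed in both. Without adjustment, 10 of the 40 (25%) were lower at a p below 0.05, beside 5.87% of all probes, and 2 (5%) were higher, beside 7.34%. Brca1, Rfc4, Smc4, Xrcc5 and Msh4 had all day 1 mice below all untreated mice, 5 of 40 beside 4.08% of all probes. At day 2 the same held for 4 of 40, beside 4.98%. Without adjustment, 8 of the 40 (20%) were lower at day 2, beside 11% of all probes. The median difference of the 40 genes was -0.07 at day 1 and -0.07 at day 2, where that of all probes was 0.02 and 0.01, and at day 2 the 95% interval lay within a 2-fold change for 34 of the 40 (85%) and for 86.97% of all probes.

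Day 2 did not differ from day 1 for any repair gene at an adjusted p of 0.05, where 0.0601% of all probes passed. Without adjustment 3 of the 40 reached a p below 0.05, beside 6.02% of all probes. The median difference was -0.04 for the repair genes and -0.02 for all probes. Over the 4 groups at once, limma's F-test passed 5 of the 40 (12.5%), beside 6% of all probes: Brca1, Rfc4, Rpa3, Rfc5 and Ercc6l.

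At day 5, none of the 40 genes differed from untreated spleen in limma, where 0.0721% of all probes passed. Without adjustment 3 reached a p below 0.05 (7.5%, beside 5.22% of all probes). All 3 were lower, beside 2.09% of all probes, and none was higher, beside 3.13%. All 40 intervals lay within a 2-fold change, as did 94.47% over all probes. The 7 genes that had fallen differed from untreated at day 5 by -0.07 ± 0.20 for Brca1, -0.11 ± 0.14 for Rpa3, -0.16 ± 0.13 for Rpa1, -0.22 ± 0.27 for Rfc4, -0.19 ± 0.26 for Lig1, -0.40 ± 0.26 for Smc4 and -0.42 ± 0.19 for Ercc6l.

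Between day 2 and day 5, Brca1 and Rpa3 rose, 2 of 40 (5%) beside 5.3% of all probes in either direction and 3.8% for rises. Brca1 rose by 1.09 ± 0.20 (adjusted p = 0.00241) and Rpa3 by 0.58 ± 0.14 (adjusted p = 0.0214), and for both every day 5 mouse was above every day 2 mouse. Rfc5 was also apart in this way, 3 of 40, and 4.8% of all probes showed this. The day 2 samples enter both this comparison and that with untreated spleen, so the rise is no independent sign of the fall. For Brca1 the call was lost with the first technical arrays alone (0.80, adjusted p = 0.0797). For Rpa3 it was lost in 7 alternatives, among them both scalings (adjusted p = 0.262 and 0.167) and leaving out day 2 mouse 3 or 5 or day 5 mouse 1 or 5 (0.058, 0.0526, 0.06 and 0.0637). The other 5 genes that had fallen were higher at day 5 without passing: by 0.78 ± 0.27 for Rfc4, 0.70 ± 0.26 for Lig1, 0.59 ± 0.26 for Smc4, 0.49 ± 0.19 for Ercc6l and 0.30 ± 0.13 for Rpa1.

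Repair and damage response genes whose symbols fall outside the rule were read from a separate list of 55 genes on the array, of which 32 were tested through 33 probes. At day 1, 1 probe rose and 2 fell, at day 2 none rose and 3 fell, at day 5 none differed from untreated, and 2 rose from day 2 to day 5. Of all probes, 0.938% rose and 1.39% fell at day 1 and 3.31% rose and 5% fell at day 2. Ube2t, the ubiquitin-conjugating enzyme of the Fanconi pathway, fell by 0.88 ± 0.18 at day 1 (adjusted p = 0.00971) and by 0.83 ± 0.17 at day 2 (adjusted p = 0.00358). Cul4a, the scaffold of a ligase that acts in excision repair, fell by 0.99 ± 0.25 at day 1 and 0.94 ± 0.24 at day 2 (adjusted p = 0.0424 and 0.0166), and Ube2b, which acts with Rad18, fell by 0.46 ± 0.11 at day 2 (adjusted p = 0.0119). H2ax, the histone marked at breaks, rose by 1.55 ± 0.39 from day 2 to day 5 (adjusted p = 0.0224). The probe that rose at day 1 was that of Ube2n, a ubiquitin-conjugating enzyme of the damage response, which was named after its value was seen (0.42 ± 0.11, adjusted p = 0.044). The median difference of the 33 probes was -0.08 at day 1 and -0.12 at day 2.

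Markers of dividing cells moved with the same groups and further. Of 14 probes, 6 fell at day 1, 8 fell at day 2, none differed at day 5 and 8 rose from day 2 to day 5, and their median difference was -0.88 at day 1 and -0.99 at day 2. Cdc20 fell by 1.99 ± 0.17 at day 2 and Cdk1 fell by 1.90 ± 0.17. With each probe centred on the mean of its group means, the median of the list ran from 0.242 to 0.816 in untreated mice, -0.663 to -0.147 at day 1, -1.18 to -0.217 at day 2 and 0.182 to 0.63 at day 5. Of 12 probes for red cell precursors, 4 fell at day 1, 7 fell at day 2 and 6 rose from day 2 to day 5, and Alas2, the haem synthesis enzyme, fell by 3.94 ± 0.32 at day 2. The median of that list ran from 0.269 to 0.656 in untreated mice, -0.598 to 0.0372 at day 1, -0.838 to -0.0633 at day 2 and 0.142 to 0.729 at day 5. In bulk spleen RNA, fewer cells of a type and less RNA per cell cannot be told apart, and the part that dividing cells or red cell precursors have in the repair genes' changes was not tested. None of the 5 B cell or 4 T cell probes passed at day 1 or day 2, and 2 of the B cell probes fell from day 2 to day 5.

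At days 1 and 2 the macrophage, platelet and stroma lists had median differences above 0. Those of the neutrophil and early granule list (6 probes) were below 0, at -0.61 and -0.47. The plasma cell list (4 probes) was also below 0, at -0.19 and -0.14, and no probe of either list passed at these days. Of 7 macrophage probes, 1 rose at day 1 and 2 rose at day 2, with a median difference of 0.77 and 0.65, and the centred median of the list ran from -0.669 to -0.306 in untreated mice, 0.0848 to 0.236 at day 1 and -0.185 to 0.854 at day 2. Of 4 platelet probes, none passed at day 1 and 1 rose at day 2, with a median difference of 0.53 and 0.70. Of 8 stroma and endothelium probes, 1 rose at each of these days, with a median difference of 0.32 at both. The part of these lists in the repair genes' values was not tested.

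**Figure D4:**
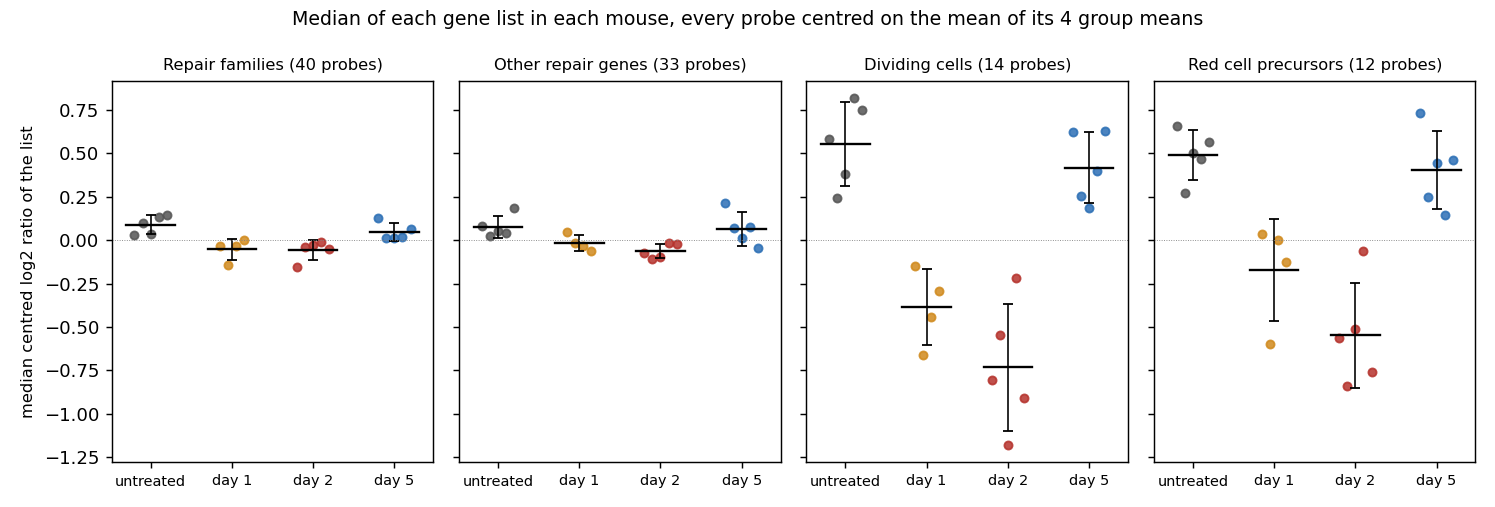
Median centred log2 ratio of 4 gene lists (vertical axis) in each mouse of the 4 groups (horizontal axis); points are mice, the bar is the group mean and the error bar 1 SD. The repair families lie between 0.0274 and 0.146 in untreated mice and between -0.142 and -0.0018 at day 1. They lie between -0.157 and -0.0138 at day 2 and between 0.0102 and 0.127 at day 5. No mouse of day 1 or day 2 overlaps an untreated mouse, but the gap is smaller than the SD of these medians within groups (0.056). The other repair genes overlap at day 1 (-0.0633 to 0.0441, beside 0.0247 to 0.184 in untreated mice). Dividing cell markers reach -1.18 and red cell precursor markers -0.838 at day 2.

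The 27 genes that were not tested had few values, and the share present was 11.1% in untreated mice, 16.7% at day 1, 23.7% at day 2 and 23.7% at day 5. Rad21, Smc3, Xrcc6, Parp9, Pold1 and Pole3 had none in any mouse. Mgmt, which removes alkyl groups from guanine directly, had values in 2 mice, both at day 5. Fanca had a value in 1 mouse, at day 2, and Xrcc1, the scaffold of single-strand break repair, had values in 2, 1, 3 and 2 mice of the groups in order of time. The sources used here do not say what makes a value missing, so these genes give no level and no direction.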

How the data were processed

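Splenocyte RNA of 19 mice was measured on 38 2-colour arrays of 13443 probes. The authors deposited 1 normalized log ratio per probe and array (Cy5 spleen over Cy3 reference), taken here as log2. Background correction, normalization method, software, batches and the reason for empty cells: not given in the sources used here. The 2 technical arrays of a mouse were averaged, or 1 used where the other was empty, so the mouse is the replicate. The series text states that mice were harvested independently.

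The fit took the 8319 probes (61.9%) measured in 3 or more mice of every group, and used limma 3.58.1 under R 4.3.3 (lmFit, then eBayes, all 4 groups, two-sided, Benjamini-Hochberg over all 8319). Calls are adjusted p below 0.05. The code was tested on simulated data. Python 3.11.15 and matplotlib 3.10.9 drew the figures. Genes were named from the platform annotation (10032 probes with 1 gene, 170 with several, 3241 with none), and promoters come from RefSeq tables of GRCm38.p6. The position of a probe within its gene was not used here.

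Named genes were each repair gene called in any comparison, up to 3 more per role by F-test p, and textbook genes of their pathway. This rule gave 35 genes. Apex1, Ercc6l2, Fancg, Pold4 and Rpa2 fell outside it, and their differences are given as well, so that all 40 measured genes appear. Alternatives were 3 other scalings, either technical array alone, the mouse as a random effect, 2 other filters, a variance trend, array weights, probe means per gene, only the groups compared, the replicate number as a block, leaving out each mouse or those of low technical correlation, and other thresholds. The members, lists and tests were chosen with earlier results of these data known. Mouse numbers did not pair the groups: over 27 same-numbered pairs the deviations correlated at 0.00199 on average, with 7 above 0.1.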

Additional observations from a re-analysis of the deposited data

Results flagged for a closer look

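Across the 35 named genes, 127 groups of 4 or 5 mice were examined for 1 mouse that stood apart from the others of its group, and 12 had one, where chance gives about 1 in 20. In untreated spleen these were Fancc in mouse 4 (log2 ratio 0.58), Lig3 in mouse 3 (-1.25), Rad17 in mouse 5 (0.35), Rad9a in mouse 4 (-0.77), Rad50 in mouse 1 (-0.14), Pole4 in mouse 2 (-1.42) and Rfc5 in mouse 2 (-0.54). At day 1 it was Rad52 in mouse 2 (-0.74), and at day 2 Parp3 in mouse 4 (0.13). At day 5 they were Xrcc5 in mouse 2 (1.20), Msh6 in mouse 3 (-0.63) and Rfc2 in mouse 1 (0.0031). No gene called in any comparison was among them. Untreated mice 2 and 4, which hold 4 of these values, are 2 of the 3 mice whose technical arrays correlated below 0.7.

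The effects at day 2 and day 5 differed from each other for Brca1, by 1.09, and for Rpa3, by 0.58, in limma's test of day 5 against day 2.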

How the results depend on the processing

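With the replicate block in the fit, the repair genes called numbered 1, 7, 0, 0 and 2 for day 1, day 2 and day 5 against untreated, day 2 against day 1 and day 5 against day 2, as without it. The shares of all probes called were 2.14%, 7.39%, 0%, 0.0361% and 4.71% in the same order. In what follows, percentages in brackets are the share of all probes called in the same setting. At day 1 the count of 1 (2.33%) became 3 after quantile normalization (2.48%) and 2 with the second technical arrays alone (2.19%). With the mouse as a random effect it became 2 (5.43%), Smc4 and Rpa3, and Rfc4 was lost. With the first technical arrays alone it stayed 1 (1.97%), which was Rfc5 in place of Rfc4. Over probes measured in every mouse it became 4 (25 repair genes, 5.06%). It was 4 with array weights (4.21%), 3 with only the groups compared (2.64%) and 12 at an unadjusted p of 0.05 (13.2%). At day 2 the count of 7 (8.31%) stayed 7 after median centring (8.21%). It became 2 after quantile normalization (4.06%) and 1 with equal spread (4.24%). It became 4 without the mice of low technical correlation (4.92%) and 3 at an adjusted p of 0.01 (3.8%). It was 5 with the second technical arrays alone (7.77%), with the random effect (11.7%) and with only the groups compared (5.4%). At day 5 against untreated and at day 2 against day 1 the count became 3 in each at an unadjusted p of 0.05 (5.22% and 6.02%). From day 2 to day 5 the count of 2 (5.3%) became 1 after quantile normalization (0.998%), 1 with equal spread (1.73%) and 4 with the random effect (8.78%). It became 1 without the mice of low technical correlation (4.08%), 1 at an adjusted p of 0.01 (2.31%) and 10 at an unadjusted p of 0.05 (18.3%). Leaving out 1 mouse at a time gave 1 to 3 at day 1, 4 to 7 at day 2 and 1 to 5 from day 2 to day 5. It gave 4 at day 2 without untreated mouse 5 (7.75%), day 2 mouse 2 (7.32%) or day 2 mouse 5 (6.2%). From day 2 to day 5 it gave 5 without day 5 mouse 3 (4.29%). The count of all probes called at day 1 (194) ranged from 76 to 1099, with 99 without day 1 mouse 2 and 109 without day 1 mouse 4. That at day 2 (691) ranged from 316 to 1739 over the settings, with 338 after quantile normalization and 353 with equal spread. In each comparison where a gene was called, its difference kept its direction in all alternatives. In comparisons where these genes were not called the direction could change, as for Brca1 at day 5 against untreated (-0.263 to 0.138). The cause of these changes was not tested. Signal over background cannot be given, since only ratios were used here.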
